A study of Mus musculus with 14 samples.

Results

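Zfp503, Rab8a, Il7 and Nrf1 are among the genes that were measured singly with quantitative PCR in fibroblasts depleted of ASH2L. They were chosen by name and are 4 of 21853 protein-coding genes on chromosomes 1 to 19, X and Y. All H3K4me3 peaks within 1 kb of a transcription start site (TSS) of these genes or inside their bodies were taken from a list of 25431 peaks, which gave 7 peaks. All putative enhancers centred within 200 kb of the reference TSS were taken from a list of 32965 regions, which gave 23 enhancers. The measurement differed between the genes. Per the study's text, Zfp503 was examined by ChIP-qPCR of the HA-tagged ASH2L protein and Rab8a by ChIP-qPCR of H3K4me3 5′ and 3′ of its TSS, whereas for Il7 and Nrf1 primers were listed for quantitative PCR of RNA.

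The cells were immortalized mouse embryo fibroblasts (iMEF). The floxed Ash2l alleles had been recombined with Cre-ER, which removed exon 4, and single clones were grown. Per the study's text, the clone NG3 was used for ChIP-seq of histone marks. The clones depended on a lentiviral transgene for human ASH2L fused to FKBP12 with the F36V allele and HA tags. The compound dTAG-13 ties this fusion protein to a ubiquitin ligase and causes its degradation. H3K4me3 was profiled by ChIP-seq in 12 libraries, 2 for each of 6 groups: cells without dTAG and cells treated for 30 min or for 2, 4, 8 or 16 h, and 2 input libraries were from cells without dTAG and after 16 h. All groups carried the deletion and the transgene. Both lists hold positions only. The peak list is the union over all H3K4me3 libraries and the enhancer list was made in control cells, so neither gives a value per library, a depth, a replicate error or a change over time, and nothing below is a comparison between treated and untreated cells.

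ASH2L is a core subunit of the COMPASS/KMT2 complexes, which methylate lysine 4 of histone H3. Trimethylation at this site lies mainly around active TSSs, frequently at CpG islands, which are stretches rich in unmethylated CpG dinucleotides. Some but not all KMT2 proteins, and a partner of the SETD1 complexes, bind such CpGs through CXXC domains. Zfp503 encodes a zinc finger repressor of the NET family that recruits Groucho corepressors. Rab8a encodes a small GTPase of exocytic and ciliary membrane traffic. Il7 encodes a stromal cytokine that lymphocyte precursors need. Nrf1 encodes nuclear respiratory factor 1, a transcription factor that binds GC-rich promoters, among them those of many nuclear genes for mitochondrial proteins.

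The promoters are shown first because CpG content and the peak differed between them. Each line holds the 250 bases before a TSS as given by RefSeq for build GRCm38.p6, written 5′ to 3′ on the strand of the gene, with CpG dinucleotides in capitals. The table used held entries for 3 of the 4 genes, not for Il7, and 2 entries for Nrf1. No base of these stretches lies in an annotated exon.
Zfp503, chr14:21989602-21989851, minus strand: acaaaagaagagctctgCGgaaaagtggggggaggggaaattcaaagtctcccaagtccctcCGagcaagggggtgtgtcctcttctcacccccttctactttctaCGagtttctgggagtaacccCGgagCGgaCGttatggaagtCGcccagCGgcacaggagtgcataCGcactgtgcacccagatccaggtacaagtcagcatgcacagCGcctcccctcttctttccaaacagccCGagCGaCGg
Rab8a, chr8:72160950-72161199, plus strand: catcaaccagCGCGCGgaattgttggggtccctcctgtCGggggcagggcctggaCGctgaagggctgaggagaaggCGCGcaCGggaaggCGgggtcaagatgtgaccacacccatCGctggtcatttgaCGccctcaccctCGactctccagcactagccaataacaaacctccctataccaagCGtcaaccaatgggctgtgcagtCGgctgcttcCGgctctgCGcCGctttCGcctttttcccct
Nrf1, upstream TSS, chr6:30047738-30047987, plus strand: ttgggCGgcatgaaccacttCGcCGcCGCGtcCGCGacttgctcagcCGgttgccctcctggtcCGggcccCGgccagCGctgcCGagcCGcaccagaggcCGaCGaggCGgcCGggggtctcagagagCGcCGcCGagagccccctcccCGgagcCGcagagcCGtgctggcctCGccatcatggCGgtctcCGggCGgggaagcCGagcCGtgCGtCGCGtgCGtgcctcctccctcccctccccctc
Nrf1, internal TSS, chr6:30076071-30076320, plus strand: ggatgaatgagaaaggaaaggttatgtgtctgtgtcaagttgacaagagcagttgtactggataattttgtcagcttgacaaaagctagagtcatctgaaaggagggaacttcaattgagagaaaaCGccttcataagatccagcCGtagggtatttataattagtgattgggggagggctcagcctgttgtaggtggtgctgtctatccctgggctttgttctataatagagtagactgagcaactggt
The Zfp503 stretch held 13 CpGs and a GC content of 57.2%. The Rab8a stretch held 18 CpGs at 61.6% GC. The upstream Nrf1 stretch held 33 CpGs at 76.0% GC, which was more than in 96.0% of the 32851 promoters in the table, and the internal Nrf1 stretch held 2 CpGs, with 18.8% of promoters holding fewer. The median over all promoters was 6 CpGs. The upstream Nrf1 stretch lies wholly inside an H3K4me3 peak, whereas the other 3 stretches contain no peak base.

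All 4 genes had at least 1 H3K4me3 peak within 1 kb of an annotated TSS. The same held for 12911 of 21853 protein-coding genes, or 59.1% (95% Wilson interval 58.4 to 59.7%, counting error only). Zfp503 had 4 peaks near its TSS or in its body, and 6.03% of the 12911 genes with a TSS peak had 4 or more. Rab8a, Il7 and Nrf1 had 1 peak each. The widest peak at a TSS measured 426 bp at Zfp503, 1149 bp at Rab8a, 1233 bp at Il7 and 2205 bp at Nrf1, with a median of 1255 bp over all genes with a TSS peak. Zfp503 therefore had one of the narrower TSS peaks, as 4.03% of genes had a narrower one. Rab8a and Il7 were near the middle, with 42.4% and 48.3% of genes below them, and 88.6% of genes had a narrower TSS peak than Nrf1.

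**Figure D1:**
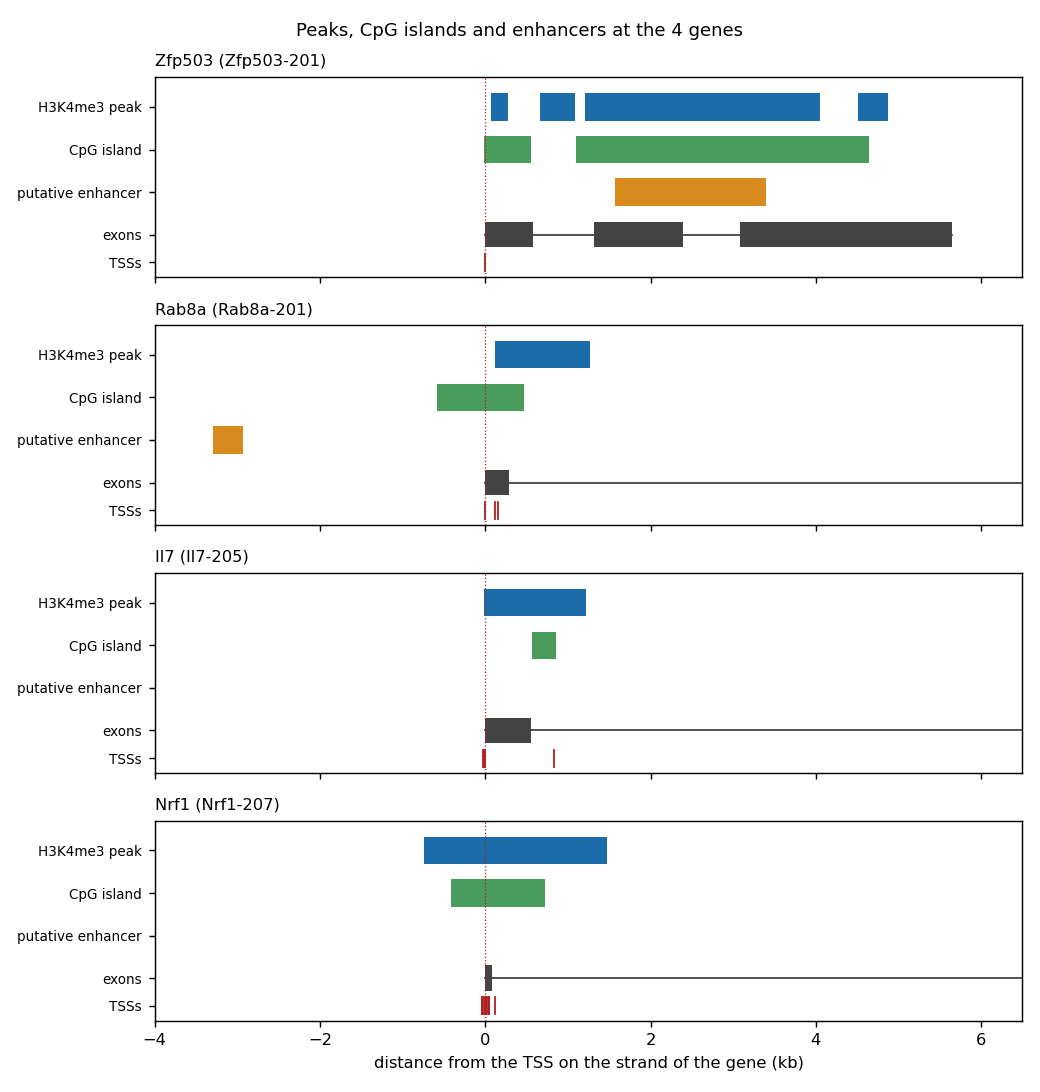
Map of the 4 genes on their own strand, with the distance from the TSS in kb on the horizontal axis. H3K4me3 peaks are blue, CpG islands green, putative enhancers orange and exons of the named transcript dark grey, red ticks mark annotated TSSs and the dotted line marks the TSS used as 0. The 4 Zfp503 peaks and the Rab8a peak begin downstream of the TSS, the Il7 peak begins 13 bp upstream of it and the Nrf1 peak spans it.

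Zfp503 lies on chromosome 14 from 21983959 to 21989601 on the minus strand (mm10) and has a single annotated transcript with its TSS at 21989601. Its first peak, chr14:21989327-21989531, measured 205 bp and covered positions 70 to 274 downstream of the TSS, all in the untranslated part of exon 1. The second peak, chr14:21988514-21988939, measured 426 bp and lay wholly in intron 1. The third peak, chr14:21985555-21988399, measured 2845 bp. It ran from position 1202 to 4046 and covered exon 2 and intron 2 in full, the end of intron 1 and the start of exon 3. Of its bases, 45.4% were coding, 26.4% untranslated and 28.2% intronic. The fourth peak, chr14:21984734-21985091, measured 358 bp and lay in exon 3, across the end of the coding sequence.

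The widest Zfp503 peak was thus inside the gene and not at its TSS. This arrangement was found in 1.7% of the genes with a TSS peak. The third peak was wider than 98.2% of all peaks in the list. The gaps between neighbouring Zfp503 peaks measured 387, 114 and 463 bp from the 5′ to the 3′ side. When peaks less than 1 kb apart were joined, the 4 peaks formed 1 domain of 4798 bp, and 98.1% of genes had a narrower widest domain. Peaks covered 67.9% of the 5643 bp of the gene, with 97.7% of genes below this share. The rank of Zfp503 by width thus depended on the measure: low for the TSS peak, high for the joined domain.

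**Figure D2:**
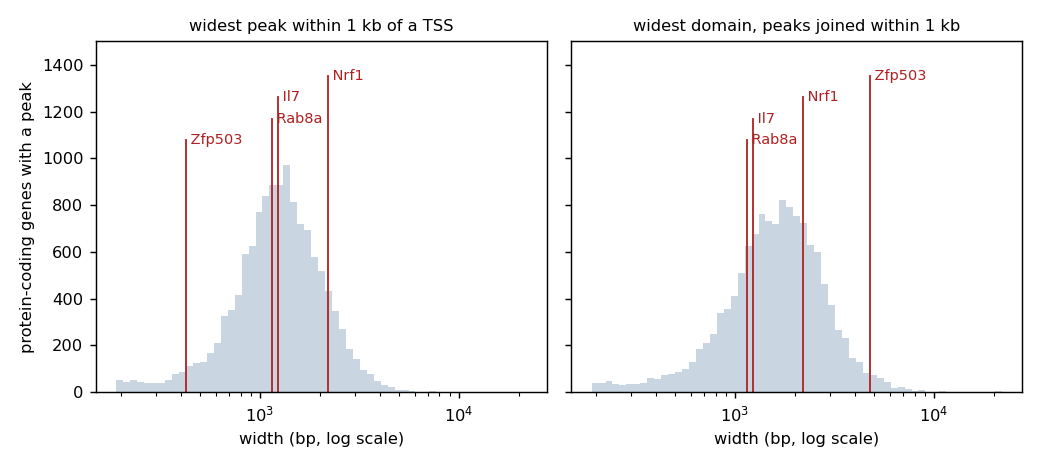
Number of protein-coding genes with a TSS peak by width in bp on a log scale, for the widest peak within 1 kb of a TSS (left) and for the widest domain after joining peaks within 1 kb (right). Red lines mark the 4 genes: Zfp503 moves from 426 bp on the left to 4798 bp on the right, whereas Rab8a, Il7 and Nrf1 have the same width in both.

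Rab8a lies on chromosome 8 from 72161200 to 72183904 on the plus strand. Its 3 annotated TSSs lie within 160 bp. The single peak, chr8:72161315-72162463, measured 1149 bp and started 115 bp downstream of the reference TSS. It covered the last 168 bp of exon 1 and 981 bp of intron 1, and ended 1263 bp downstream of the TSS. Of the 3 TSSs, only that of the retained intron transcript Rab8a-202 lay inside the peak, while the TSS of Rab8a-203 lay 2 bp outside it. A non-coding gene on the opposite strand, Gm16091, starts 345 bp upstream of the Rab8a TSS, and its TSS was 460 bp away from the peak. No peak base was listed between these divergent TSSs.

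Il7 lies on chromosome 3 from 7569994 to 7613760 on the minus strand and has 5 annotated TSSs. The single peak, chr3:7612508-7613740, measured 1233 bp and ran from 13 bp upstream to 1219 bp downstream of the reference TSS of Il7-205. It covered all 557 bp of exon 1 and 663 bp of intron 1. The reference TSS and the TSS of Il7-204 lay inside the peak, and the TSSs of Il7-202 and Il7-203 lay 1 and 20 bp upstream of it. The most downstream TSS, that of Il7-201, had no peak within 1 kb and lay 6644 bp from the peak. An antisense gene, Gm16685, starts inside the Il7 peak, 1022 bp downstream of the Il7 reference TSS. Reads from such an overlapping pair of TSSs cannot be assigned to either gene from this list.

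Nrf1 lies on chromosome 6 from 30047988 to 30153458 on the plus strand and has 16 distinct TSSs, more than 97.8% of genes with a TSS peak (median 5). Of these, 10 lie within 164 bp at the 5′ end of the gene, and all 10 were inside the single peak, chr6:30047294-30049498. The other 6 TSSs had no peak within 1 kb. Of genes with a TSS peak and 2 or more TSSs, 70.2% had at least 1 TSS without a peak within 1 kb, and among the 4 genes this was seen at Il7 and Nrf1. The tag rule used to pick 1 reference TSS per gene selected Nrf1-202, which starts at 30089889, has the weakest transcript support level and lies 40391 bp from the nearest peak. Of the genes with a TSS peak, 5.63% had no peak base within 1 kb of the reference TSS. For Nrf1, values are therefore given also for Nrf1-207, the transcript with the best support level under the same tags, whose TSS is at 30048031. Relative to this TSS the peak ran from 737 bp upstream to 1467 bp downstream and covered exon 1 and the first 1385 bp of intron 1.

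H3K4me3 on both sides of a TSS was one question at Rab8a, so the peak bases in the 1 kb upstream and in the 1 kb downstream were compared. At Zfp503 0 upstream and 543 downstream bases were in peaks. At Rab8a the numbers were 0 upstream and 885 downstream. At Il7 they were 13 upstream and 1000 downstream. At the TSS of Nrf1-207 they were 737 upstream and 1000 downstream, so that 57.6% of the peak bases lay downstream. Among 12184 genes with a peak base within 1 kb of the reference TSS, the median gene had 423 upstream and 912 downstream bases, and a median downstream share of 65.4%.

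Zfp503 and Rab8a belonged to the 8.12% of these genes without any upstream peak base. They also belonged to the 18.7% whose reference TSS lay outside every peak. Il7 had its reference TSS in the peak, but with the TSS of Il7-203, the most upstream one, it too had 0 upstream bases and 980 downstream bases. At the TSSs that lie in its peak, Nrf1 had more upstream peak bases than the other 3 genes, whereas at its reference TSS it had none on either side. With 4 genes and no value per library, these counts describe the listed peak borders and have no replicate error. A base outside the list is not shown to lack H3K4me3, and ChIP-qPCR was run on both sides of the Rab8a TSS.

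**Figure D3:**
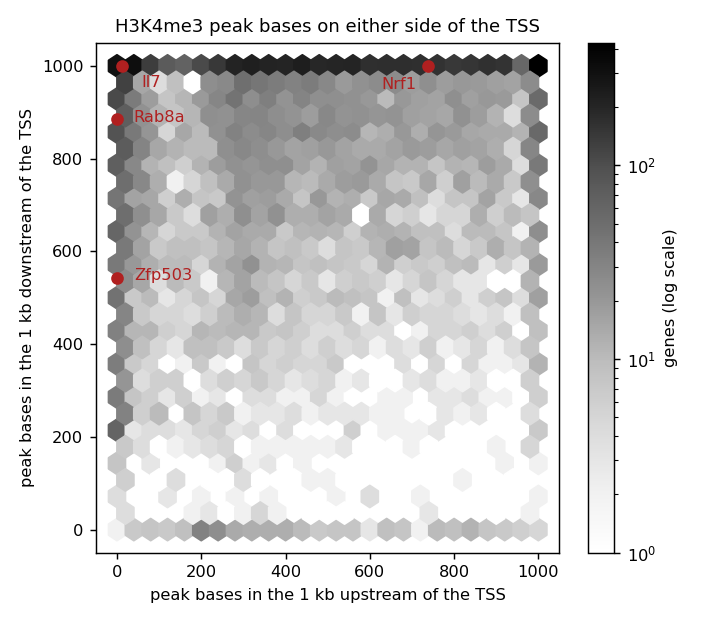
Peak bases in the 1 kb upstream (horizontal axis) and in the 1 kb downstream (vertical axis) of the TSS, for genes with a peak base in either window, with darker hexagons holding more genes (log scale). Red points mark Zfp503, Rab8a and Il7 at 0, 0 and 13 upstream bases and Nrf1 (TSS of Nrf1-207) at 737.

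CpG islands were called on the reference genome, and the peaks at the TSSs of all 4 genes overlapped an island. This was also the case for 87.9% of genes with a TSS peak. The position of the island relative to the peak differed between the genes. The Rab8a island measured 1046 bp and ran from 583 bp upstream to 462 bp downstream of the TSS, with 88 CpGs. The peak covered its last 348 bp and none of its 583 upstream bases. Of 7281 genes with a peak base near the reference TSS and at least 100 island bases in the upstream 1 kb, 4.88% had none of those island bases in a peak. Rab8a was the only one of the 4 genes that entered this comparison.

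At Zfp503 the TSS island measured 568 bp with 39 CpGs, and peaks covered 36.1% of it. A second Zfp503 island in the gene body measured 3548 bp with 244 CpGs, and peaks covered 83.9% of it. The Il7 island was the smallest, at 292 bp with 27 CpGs, and lay 562 to 853 bp downstream of the reference TSS, fully inside the peak. The Il7 reference TSS was thus outside every island, as in 16.8% of genes with a peak base near the reference TSS and an island under a TSS peak. The Nrf1 island measured 1131 bp with 144 CpGs, the highest observed-to-expected ratio (0.953), and lay fully inside the peak.

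CpG density differed between the 7 peaks. Nrf1 had 8.12 CpGs per 100 bp of peak, which exceeded 89.1% of all peaks, and the third Zfp503 peak had 7.52. The Il7 peak had 4.3 and the Rab8a peak 3.48 CpGs per 100 bp, near the median of 4.13 over all peaks. The intronic second Zfp503 peak had 2.11, the lowest of the 7. In the 1 kb upstream of the TSS, where Rab8a and Zfp503 had no peak, the Rab8a sequence held 55 CpGs and the Zfp503 sequence 34. The upstream 1 kb of the 5′-most Nrf1 TSS, which had 694 peak bases, also held 55 CpGs. Bases masked as repeats made up 23.4% of the upstream 1 kb at Rab8a, 17.6% at Zfp503 and 22.6% at Nrf1, and their part in the listed peak borders was not tested.

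**Figure D4:**
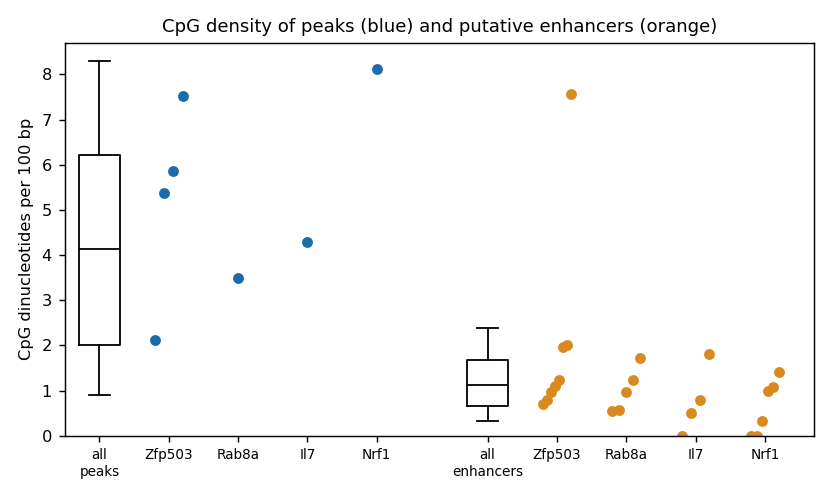
CpG dinucleotides per 100 bp in each H3K4me3 peak (blue) and each putative enhancer within 200 kb (orange) of the 4 genes. The boxes show the quartiles and median over all listed peaks and enhancers, with whiskers from the 10th to the 90th percentile, and the Zfp503 enhancer at 7.56 stands above the other 22 enhancers, which lie between 0 and 2.

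Putative enhancers are regions with H3K4me1, H3K27ac and ATAC signal in control cells. Per the study's text, they were defined without the 1 kb on either side of TSSs of known mm10 promoters. These TSSs are not all those of the annotation used here, in which a Zfp503 enhancer was centred 0.44 kb from the TSS of Gm37590. Each of the 4 genes had such regions within 200 kb of its reference TSS, as did 95.1% of genes with a TSS peak. Zfp503 had 8, Nrf1 6, Rab8a 5 and Il7 4, beside a median of 6 over genes with a TSS peak. No link between an enhancer and a gene was measured. The outermost enhancers counted were centred 189, 192, 118 and 193 kb from the TSS of Zfp503, Rab8a, Il7 and Nrf1, and the first ones not counted lay at 202, 422, 437 and 211 kb.

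The Zfp503 enhancer at chr14:21986211-21988036 measured 1826 bp, and 99.1% of listed enhancers were narrower. It lay 1565 to 3390 bp downstream of the TSS, wholly inside the third H3K4me3 peak. Across the list, 7.52% of enhancers overlapped a peak and 2.69% were wholly inside one. Of genes with a TSS peak, 8.29% had an enhancer in the body that overlapped a peak, and 3.73% had one wholly inside a peak, and Zfp503 alone of the 4 genes was among them. Its sequence held 7.56 CpGs per 100 bp, above 99.3% of enhancers. The other 7 Zfp503 enhancers lay downstream of the gene at 36.7 to 189 kb, and 5 of the 8 had the Zfp503 TSS as the nearest coding TSS. Except for the enhancer in the gene, these 5 lay nearer to the TSS of Gm37590, at 0.44 to 20.8 kb, than to that of Zfp503, at 36.7 to 57.1 kb. For the remaining 3 the nearest coding TSS was that of Vdac2.

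The nearest Rab8a enhancer, chr8:72157909-72158271, measured 363 bp, was centred 3.11 kb upstream of the TSS and lay in an intron, with the TSS of Gm16091 at 2.77 kb. It was the only one of the 5 for which Rab8a had the nearest coding TSS. A second one, chr8:72145542-72147784, was centred 14.5 kb upstream and measured 2243 bp, wider than 99.7% of enhancers, and the nearest coding TSS was that of Tpm4, a tropomyosin gene, while that of Gm26586 was nearer. The other 3 were centred 134.7 to 191.8 kb away. None of the 5 overlapped a peak.

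The 4 Il7 enhancers all lay 98.4 to 118 kb downstream of the Il7 TSS, and Zc2hc1a had the nearest coding TSS to each. None was inside Il7, and 85.5% of genes with a TSS peak had a nearer enhancer than Il7. At Nrf1, 3 of the 6 enhancers lay in the gene, and Nrf1 had the nearest coding TSS to these. The other 3 were centred 157 to 193 kb downstream of the reference TSS, and Ube2h had the nearest coding TSS to each. The first of those in the gene, chr6:30091405-30091688, measured 284 bp and lay 1516 bp downstream of the reference TSS of Nrf1-202, next to the group of internal TSSs without a peak. From the TSS of Nrf1-207, which lay in the peak, the nearest enhancer was 43.5 kb away and the number within 200 kb was 4. No Nrf1 enhancer was wider than 312 bp, beside a median of 405 bp in the list.

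**Figure D5:**
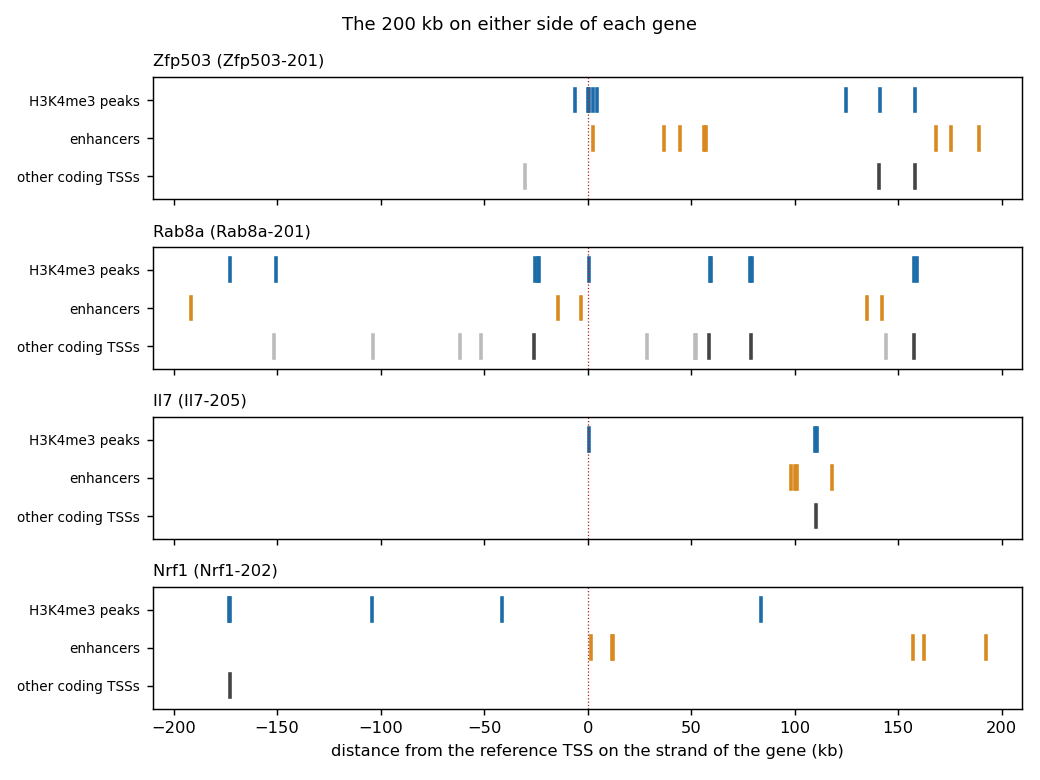
The 200 kb on either side of the reference TSS of each gene, in kb on the strand of the gene. Ticks mark H3K4me3 peaks (blue), putative enhancers (orange) and TSSs of other protein-coding genes, dark grey with and light grey without a peak within 1 kb. Il7 has 1 other coding gene and all 4 enhancers near 100 kb downstream, whereas Rab8a has 12 other coding genes.

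A stretch of up to 300 bases outside annotated exons is shown for the enhancer nearest to Zfp503, Rab8a and Nrf1 and for a short enhancer downstream of Il7, again on the strand of the gene with CpGs in capitals, to set beside the promoters.
Zfp503, inside the third peak, chr14:21986710-21987009, minus strand: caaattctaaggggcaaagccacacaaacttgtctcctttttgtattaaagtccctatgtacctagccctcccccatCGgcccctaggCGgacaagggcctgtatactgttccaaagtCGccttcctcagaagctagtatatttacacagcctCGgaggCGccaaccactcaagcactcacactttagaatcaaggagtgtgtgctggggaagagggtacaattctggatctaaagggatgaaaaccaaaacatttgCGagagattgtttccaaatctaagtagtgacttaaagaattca
Rab8a, chr8:72157940-72158239, plus strand: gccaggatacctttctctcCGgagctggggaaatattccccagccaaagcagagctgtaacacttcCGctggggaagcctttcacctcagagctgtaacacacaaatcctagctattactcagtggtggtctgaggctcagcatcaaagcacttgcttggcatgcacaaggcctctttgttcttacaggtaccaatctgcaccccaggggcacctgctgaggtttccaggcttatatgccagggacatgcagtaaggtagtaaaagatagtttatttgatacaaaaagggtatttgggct
Il7, chr3:7512612-7512814, minus strand: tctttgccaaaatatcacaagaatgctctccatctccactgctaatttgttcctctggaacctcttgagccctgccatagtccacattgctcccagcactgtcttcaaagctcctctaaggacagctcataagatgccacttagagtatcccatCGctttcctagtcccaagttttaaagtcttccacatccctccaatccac
Nrf1, chr6:30091405-30091688, plus strand: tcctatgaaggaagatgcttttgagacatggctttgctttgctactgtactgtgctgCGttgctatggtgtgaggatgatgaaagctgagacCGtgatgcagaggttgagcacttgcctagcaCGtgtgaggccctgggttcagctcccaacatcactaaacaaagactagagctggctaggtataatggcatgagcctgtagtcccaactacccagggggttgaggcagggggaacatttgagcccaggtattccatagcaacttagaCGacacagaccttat
These stretches held 6, 2, 1 and 4 CpGs. The Il7 enhancer shown was not the nearest one. Stretches of 300 bases from the nearest and second nearest Il7 enhancers held 4 and 5 CpGs. The Zfp503 stretch, which is a part of intron 2, was less dense in CpGs than the enhancer as a whole.

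The promoters, peaks and enhancers were searched on both strands for 11 short motifs. These were the NRF1 core CGCATGCG and half-site TGCGCA, the SP/KLF box GGGCGG, the EGR1 site GCGTGGGCG, ETS CCGGAAG, NFY CCAAT, E-box CACGTG, CRE TGACGTCA, AP-1 TGANTCA, the TATA box (TATAAA) and TEAD GGAATG. The letters GGGCG lie in both the SP/KLF box and the EGR1 site, so that matches to these can overlap. The Zfp503 promoter stretch held none of the 11. The Rab8a stretch held an ETS match at position -35 and NFY matches at -90 and -58, where positions count back from the TSS to the first base of the match. An ETS match occurred in 6.91% of all promoters and an NFY match in 33.9%. The upstream Nrf1 stretch held SP/KLF matches at -248 and -56, beside 32.7% of promoters with at least 1. The internal Nrf1 stretch held a TATA match at -96 and an NFY match at -83.

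The exact letters given above for the NRF1 core and for the EGR1 site were not found in the peaks and enhancers of the 4 genes. They were also not found in the 4 promoter stretches of Zfp503, Rab8a and Nrf1. Other spellings of these sites were not searched, so a site of either factor is not shown to be absent. In promoters these letters occurred in 1.55% and 0.536% of the table. The NRF1 half-site was found once each in the fourth Zfp503 peak, the Il7 peak and the Nrf1 peak. For comparison, the central stretch of the same length was searched in every listed peak at least that long. These central stretches held the half-site in 7.79%, 24.6% and 34.2% of cases. The half-site was also found once in a Zfp503 enhancer of 620 bp and once in a Rab8a enhancer of 524 bp. Central stretches of these lengths, in enhancers at least as long, held it in 4.34% and 3.46% of cases. The Rab8a peak held a CRE match, 993 bp from its 5′ end, beside 3.31% of central stretches of that length in peaks at least as long. An E-box match was found in an Il7 enhancer of 331 bp and in the Nrf1 enhancer of 284 bp. Central stretches of these lengths, in enhancers at least as long, held it in 5.13% and 4.44% of cases. The Nrf1 peak held 8 SP/KLF matches, beside 94.7% of central stretches with at least 1. Further matches to SP/KLF, ETS, NFY, AP-1, TATA and TEAD in peaks and enhancers are not listed here. Matches are a description of letters and say nothing of factor binding.

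The surroundings of the genes differed. Distances to the nearest peak that belonged to no TSS or body of the gene were taken from the gene's own peaks, not from the gene ends. They were 5.55 kb at Zfp503, 23.4 kb at Rab8a, 61.5 kb at Nrf1 and 108 kb at Il7. The median was 29.3 kb over genes with a TSS peak. Zfp503 had 3 other coding genes within 200 kb, of which Comtd1 and Vdac2 had a TSS peak and Lrmda had none. Rab8a had 12, of which Tpm4, Fam32a, Ap1m1 and Klf2 had a peak. The 8 others included 3 olfactory receptor genes and Cyp4f18 and had none. Il7 and Nrf1 had 1 each, Zc2hc1a and Strip2, both with a peak.

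Genes with the most similar peak were found by the summed distance between the upstream ends and the downstream ends of the widest TSS peak, among genes with the same number of TSS peaks. For Rab8a, compared with 7698 genes, Otud6b was closest, with a peak from 110 to 1247 bp downstream of its TSS and a summed difference of 21 bp, followed by Mbd2 and Lpl at 37 and 48 bp. For Il7 the closest were Atmin, Dyrk1b and Agfg2, with differences of 7, 7 and 8 bp. For the TSS of Nrf1-207 they were Cope, Aff4 and Jph2, with 22, 27 and 27 bp. For the reference TSS of Nrf1, far from the peak, the closest genes were Chst9, Mcf2l and Fgd4, which differed by 1401, 1542 and 3417 bp. For Zfp503, compared with 4115 genes with 2 TSS peaks, they were Mr1, Stac2 and Lingo4, with 131, 144 and 148 bp. The summed differences were larger for Zfp503 than for Rab8a and Il7. Zfp503 was compared with a smaller set of genes and by its second peak only, and the effect of this on the differences was not tested.

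Lists of related genes were read in the same way, and the share to set beside them is the 59.1% of all coding genes with a TSS peak. All 8 genes of the NET and Groucho list had a TSS peak, from 1021 bp at Tle2 to 3110 bp at Zfp703, the paralog of Zfp503. Zfp703 had 2 TSS peaks and 18 enhancers within 200 kb. All 15 genes of the Rab8 cycle had a TSS peak, from 505 bp at Chm, which encodes Rab escort protein, to 2781 bp at Micall1, which encodes a Rab8 effector on recycling membranes. Rab8b, the paralog of Rab8a, had 2 TSS peaks, the wider of 1030 bp. The median width of the widest TSS peak was 1941 bp in the NET and Groucho list, 1381 bp in the Rab8 cycle list, 1411 bp in the NRF1 list and 1058 bp in the IL-7 list, beside 1255 bp over all genes with a TSS peak. A TSS peak overlapped a CpG island in 8 of 8, 13 of 15, 11 of 13 and 5 of 7 of their genes with a peak, in the same order, beside 87.9% of all genes with a TSS peak.

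In the list for the IL-7 family and receptor pathway, which includes other cytokines, 7 of 13 genes had a TSS peak. This share was near that of all coding genes. The 6 without were the receptor genes Il7r and Il2rg and the cytokine genes Il2, Il4, Il9 and Il21. Those with a peak ranged from 895 bp at Stat5a to 1808 bp at Stat5b, which encode transcription factors downstream of the receptor. The others were the receptor gene Crlf2, the kinase genes Jak1 and Jak3 and the cytokine genes Tslp and Il15, between 911 and 1307 bp. The 13 genes of NRF1 partners and mitochondrial targets all had a TSS peak, from 753 bp at Tfb2m, a mitochondrial transcription factor, to 2742 bp at Pprc1, a coactivator of the PGC-1 family. Of 3 further genes named beside these, Rspo2 and Egr1 had TSS peaks of 2805 and 3380 bp, wider than the TSS peaks of the 4 genes, and Ppbp had none.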

How the data were processed

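Per the study's methods, the authors trimmed the reads, aligned them with BWA to mm10, filtered them with SAMtools, merged replicates and called narrow peaks with MACS2. The submitters' processing notes also name deepTools and DESeq2, and give no versions. The deposited peak list is the union over the H3K4me3 libraries, and the deposited enhancer list holds regions positive for H3K4me1, H3K27ac and ATAC signal in control cells. Both hold positions only and no other unit: no counts, scores or p-values, so that the depth behind a peak cannot be read from them and no test was run. Whether peaks were called on merged replicates is not stated. Peak starts were read as counting from 0 and enhancer starts from 1, from the widths.

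Positions were set against GENCODE M21 and RefSeq GRCm38.p6, the build of the files, with Python 3.11.15 and numpy 2.4.6. The reference TSS was that of the protein-coding transcript with an APPRIS principal tag, then CCDS, then basic, then the lowest number. CpG islands scored 17 per CpG and -1 per other base with repeats masked, over 200 bp, GC over 50% and an observed-to-expected CpG ratio over 0.6, which gave 16199 islands. Overlap and island code was tested on simulated data. The text names the 4 genes, genes sharing a peak, neighbours within 200 kb and the 3 most similar genes. Of the fixed related lists it names the genes with the widest and narrowest peak and those without a peak. Paralogs and the other genes of the IL-7 list were added after their values were seen. Genes with the TSS nearest to a described enhancer are named as well. Tle5 was matched through an older symbol. Members and lists were chosen with earlier results of these data known, and several shares over all genes were chosen after the genes' values were seen.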

Additional observations from a re-analysis of the deposited data

How the results depend on the processing

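The 4 genes had 7 peaks also with TSSs of protein-coding transcripts, with RefSeq TSSs, with windows of 500 bp or 3 kb and with starts counted from 1. There were 4 with peaks of at least 500 bp and 4 after joining peaks within 1 kb, as only the third Zfp503 peak or 1 domain then remained at Zfp503. The share of coding genes with a TSS peak was 55.8% with 1 TSS per gene, 60.5% with a window of 3 kb, 55.6% with peaks of at least 500 bp and 60.3% on autosomes. Over the 4 genes, 99.5% of the peak bases within 1 kb of the reference TSS lay downstream. These bases came from Zfp503, Rab8a and Il7 only, as Nrf1 had none within 1 kb of its reference TSS. The share was 83.1% with the most upstream TSS and 83.1% with the RefSeq TSS. It was 82.1% with the support level ranked first (chosen after seeing the data). These 3 settings include Nrf1, because they place its TSS inside its peak. The 23 enhancers became 11 within 100 kb, 46 within 500 kb and 7 with a width of at least 500 bp, of which none was near Nrf1. With stricter islands 3 genes kept an overlap, and Il7 had none. No paired analysis was possible because positions without values per library leave nothing to pair. For the same reason the replicate block was not run and no library could be left out. The depth behind a peak border is not known.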
